A study of Mus musculus with 22 samples.

Results

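The genes followed here were the immediate early transcription factors Egr1, Fos, Jun, Junb, Atf3 and Myc, measured in mouse liver after an injection of interferon-gamma. All 6 had a probe set that the platform's probe table assigned to a single gene symbol, so they were 6 of 8251 genes tested and 11 of 10833 probe sets. Each gene was represented by the probe set with the highest mean over the 22 arrays, and the other probe sets of the gene were checked beside it. The livers came from mice lacking Socs1 and Ifng (SOCS1-/-IFNg-/-) and from mice lacking Ifng alone (IFNg-/-), so every mouse, controls included, lacked its own interferon-gamma. In each genotype livers were taken 0.5, 1, 2, 4, 12, 16, 24 and 48 h after an intraperitoneal injection of 4 µg recombinant interferon-gamma in 100 µl, and 3 control livers were untreated or taken 4 or 12 h after 100 µl of phosphate-buffered saline (PBS). Each condition was measured on 1 array per genotype; the age of the mice, and whether a liver sample was 1 mouse or a pool, are not given in the labels used here. The comparison of the genotypes addresses how SOCS1, a suppressor of JAK kinases that interferon-gamma itself induces, limits the response in the liver.

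Immediate early genes are transcribed within minutes of a stimulus from factors already present in the cell, without new protein synthesis. Their products are themselves transcription factors: FOS, JUN and JUNB proteins pair through leucine zippers to form AP-1, ATF3 is a related stress-induced factor of the ATF/CREB family, EGR1 is a zinc finger protein downstream of MAP kinases, and MYC drives growth genes as a partner of MAX. In liver they are also known to respond to injury, partial hepatectomy and handling of the animal.

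The 250 bases before the annotated transcript start are printed for the 4 members found in the RefSeq promoter table (build GRCm38.p6), because these 4 genes rose with different timing. They lie at chr12:85473640-85473889 on the plus strand for Fos, and on the minus strand at chr4:95052223-95052472 for Jun, chr8:84978749-84978998 for Junb and chr1:191183334-191183583 for Atf3. Capitals mark matches to the motifs searched.
Fos: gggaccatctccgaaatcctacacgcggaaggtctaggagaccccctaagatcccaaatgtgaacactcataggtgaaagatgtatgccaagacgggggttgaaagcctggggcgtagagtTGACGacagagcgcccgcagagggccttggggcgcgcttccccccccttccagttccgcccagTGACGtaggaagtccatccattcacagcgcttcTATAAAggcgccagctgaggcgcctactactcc
Jun: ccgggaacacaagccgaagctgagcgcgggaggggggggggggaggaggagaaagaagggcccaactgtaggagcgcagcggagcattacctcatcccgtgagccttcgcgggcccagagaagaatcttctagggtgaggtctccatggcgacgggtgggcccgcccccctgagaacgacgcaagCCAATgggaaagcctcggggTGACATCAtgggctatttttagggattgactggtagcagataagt
Junb: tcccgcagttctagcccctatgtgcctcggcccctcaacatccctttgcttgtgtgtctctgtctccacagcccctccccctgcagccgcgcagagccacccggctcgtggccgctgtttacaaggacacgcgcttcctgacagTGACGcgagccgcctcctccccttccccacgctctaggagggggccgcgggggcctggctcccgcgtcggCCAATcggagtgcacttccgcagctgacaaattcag
Atf3: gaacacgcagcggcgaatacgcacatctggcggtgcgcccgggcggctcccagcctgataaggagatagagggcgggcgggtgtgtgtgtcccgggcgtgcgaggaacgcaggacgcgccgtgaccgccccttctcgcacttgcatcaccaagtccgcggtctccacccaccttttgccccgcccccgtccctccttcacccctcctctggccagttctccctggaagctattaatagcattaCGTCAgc

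Fos carried TGACG, the core of the cyclic AMP response element, 129 to 125 and again 66 to 62 bases before its start, with the TATA box TATAAA 33 to 28 bases before it. Jun carried the octamer TGACATCA, a form of TGACNTCA, 45 to 38 bases before its start and a CCAAT box 65 to 61 bases before it. Junb carried TGACG at 106 to 102 bases and CCAAT at 36 to 32 bases before its start, and Atf3 carried CGTCA, which is TGACG on the other strand, 7 to 3 bases before its start. Both strands were searched, and TGACNTCA includes the full element TGACGTCA. No match was found in the 4 windows for TGACGTCA, for the AP-1 site TGANTCA, for the EGR1 site GCGNGGGCG, for the MYC site CACGTG or for the CArG box bound by serum response factor. Among 32851 promoter windows of the same length, TGACG occurred in 17.8%, TGACNTCA in 7.49%, CCAAT in 33.8%, TATAAA in 12.4%, TGACGTCA in 1.55%, the AP-1 site in 6.75%, the EGR1 site in 4.70%, the MYC site in 6.02% and the CArG box in 1.47%. These matches describe the letters in the windows, and bases further from the start were not searched. The motifs TGACG, TGACNTCA and CCAAT were added after the sequences had been read.

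Values are log2 expression as deposited, so a difference of 1 is a doubling, and levels of different probe sets are not set against each other. Array medians lay between 5.72 and 5.77. The array of SOCS1-/-IFNg-/- liver at 4 h had the lowest median correlation with the other arrays, at 0.97, and the IFNg-/- array at 4 h carried Cxcl9, an interferon-induced chemokine, at 8.06, against 10.25 at 2 h and 10.99 at 12 h in the same genotype. Cxcl9 was also high on both PBS 12 h arrays, at 8.31 in SOCS1-/-IFNg-/- and 7.76 in IFNg-/- liver. The mean of 6 hepatocyte markers was between 11.92 and 12.21 on every array, near the top of the scale.

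**Figure D1:**
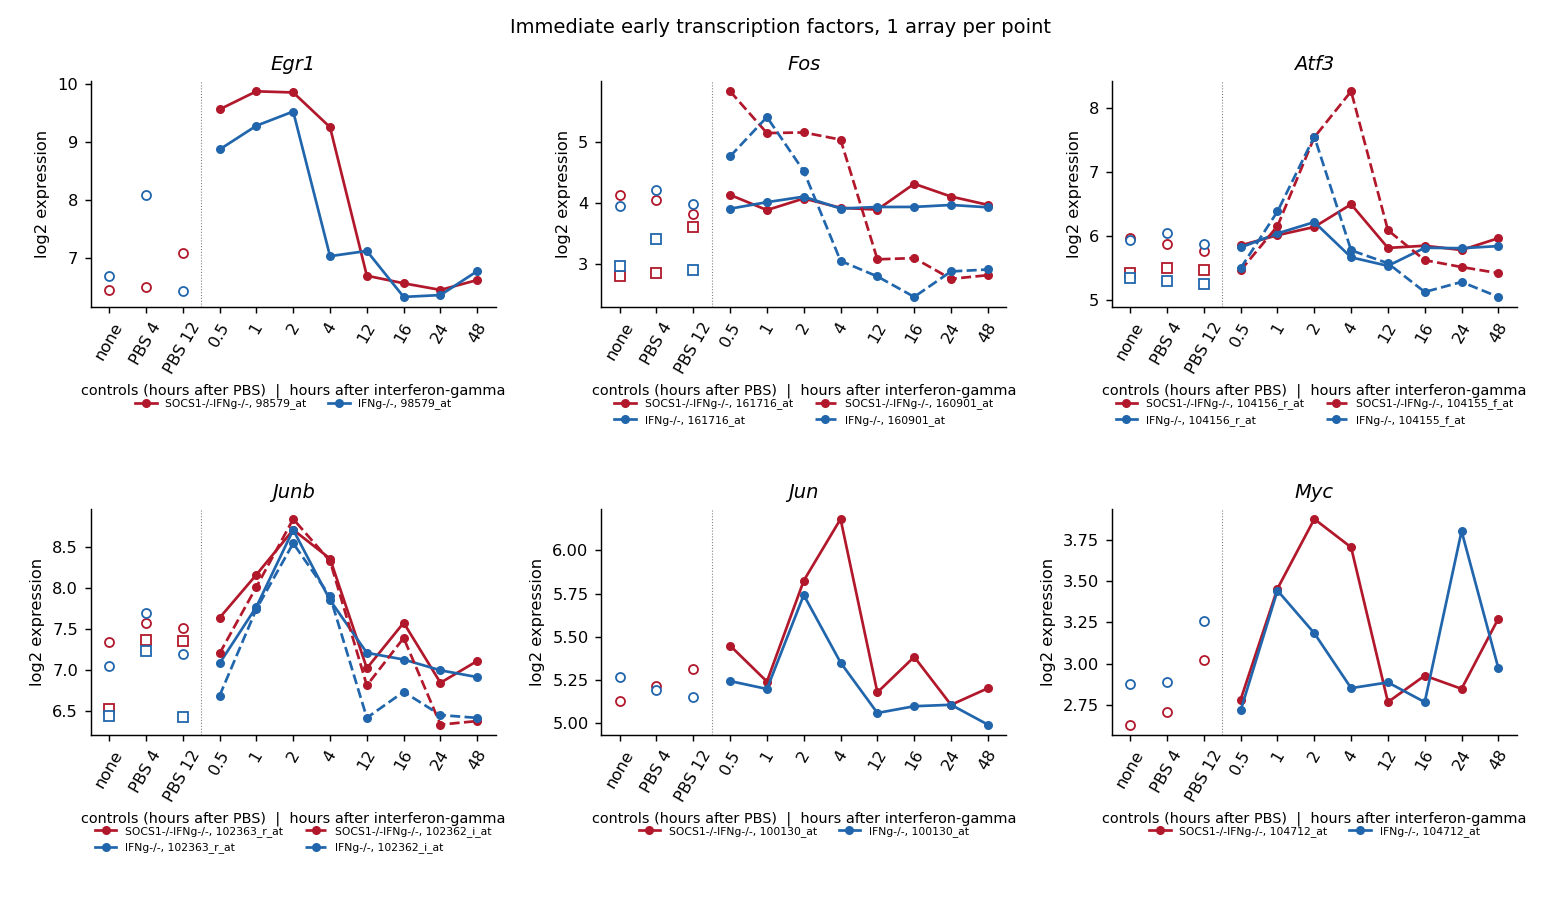
Deposited log2 expression of the 6 genes on each of 22 arrays, in SOCS1-/-IFNg-/- (red) and IFNg-/- (blue) livers. Open symbols are the untreated and PBS livers, filled symbols the livers after interferon-gamma, and dashed lines with open squares the probe set of wider range where the chosen one varied less (Fos, Atf3 and Junb); Egr1 and Fos (160901_at) were already high at 0.5 h, and Junb, Jun and Atf3 (104155_f_at) were high at 2 and 4 h.

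Egr1 (probe set 98579_at) differed most from controls in the early hours among the 6 chosen probe sets. In SOCS1-/-IFNg-/- liver it stood at 6.44 untreated, at 6.50 and 7.09 after PBS for 4 and 12 h, and at 9.57, 9.88, 9.86 and 9.26 at 0.5, 1, 2 and 4 h of interferon-gamma. In IFNg-/- liver it stood at 6.68 untreated, at 8.08 and 6.42 after PBS for 4 and 12 h, and at 8.87, 9.28, 9.53 and 7.03 at 0.5, 1, 2 and 4 h. At 0.5, 1 and 2 h both genotypes lay above all 6 control arrays, and at 4 h SOCS1-/-IFNg-/- liver did so while IFNg-/- liver lay below its own PBS 4 h liver. How often other probe sets lie above all controls was not counted, here or for the members below. From 12 to 48 h the 8 arrays spanned 6.32 to 7.12, within the control range of 6.42 to 8.08 apart from 2 arrays of IFNg-/- liver at 16 and 24 h.

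Against the mean of the 6 control arrays, Egr1 was higher by 2.35 ± 0.44 at 0.5 h (limma adjusted p = 0.369), and it rose by 2.71 ± 0.44 at 1 h (adjusted p = 0.0188) and by 2.82 ± 0.44 at 2 h (adjusted p = 0.00279), a 6.54-fold and a 7.08-fold difference; errors are the standard errors of the fit. At 4 h the difference was 1.27 ± 0.44 (adjusted p = 0.12). Without the IFNg-/- array, the lower of the 4 h pair, it was 2.38 ± 0.43 and rested on 1 array at 4 h. Without the IFNg-/- PBS 4 h array it was 1.60 ± 0.37 (adjusted p = 0.0203). The pair means at 0.5, 1 and 2 h were 9.22, 9.58 and 9.69, and these neighbours differed by less than the standard error of 0.54 between any 2 pairs of arrays. At 0.5 h 0 of 8251 genes passed in limma (0% higher), although 478 had an unadjusted p under 0.05, and that of Egr1 was 8.44e-05. It passed in 3 distinct alternatives, with array weights (adjusted p = 0.0392), without the 4 h pair or either array of it, which is the same fit for this comparison (adjusted p = 0.0225), and without the IFNg-/- PBS 4 h array (adjusted p = 0.0322). The 1 h call was lost without the untreated pair (limma adjusted p = 0.0582) and with trend and robust fitting (adjusted p = 0.179), and with the other Egr1 probe set, 161802_i_at, the 1 h difference was -0.20 ± 0.13. In bulk liver, a change in RNA per cell and a change in the number of cells that hold the RNA cannot be told apart.

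The second Egr1 probe set, 161802_i_at, showed none of this. It spanned 3.21 to 4.01 over all arrays, and its mean lay at percentile 13.3 of all probe set means. Its differences from controls at 0.5, 1 and 2 h were -0.03, -0.20 and -0.15 (SE 0.13 each), and over the 22 arrays the 2 probe sets had a Pearson r of -0.48. The suffix i marks a set with fewer probes than the platform's standard, and which transcript it reads was not tested.

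Fos, the AP-1 subunit that cannot pair with itself, gave a similar time course on a probe set that the rule did not choose. The set with the highest mean, 161716_at, spanned 3.82 to 4.32 over all arrays, and its differences from controls lay between -0.11 and 0.10 at every time. Probe set 160901_at spanned 2.47 to 5.83. In SOCS1-/-IFNg-/- liver 160901_at stood at 2.80 untreated, at 2.85 and 3.61 after PBS for 4 and 12 h, and at 5.83, 5.15, 5.16 and 5.04 at 0.5, 1, 2 and 4 h of interferon-gamma. In IFNg-/- liver it stood at 2.98 untreated, at 3.42 and 2.91 after PBS for 4 and 12 h, and at 4.76, 5.41, 4.52 and 3.05 at 0.5, 1, 2 and 4 h. As for Egr1, both genotypes lay above all controls at 0.5, 1 and 2 h, and at 4 h SOCS1-/-IFNg-/- liver alone did. The 8 arrays from 12 to 48 h lay between 2.47 and 3.10.

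In the fit with each probe set on its own, which was added after the data were seen, Fos 160901_at was higher by 2.20 ± 0.35 at 0.5 h (limma adjusted p = 0.123), rose by 2.18 ± 0.35 at 1 h (adjusted p = 0.0124) and by 1.75 ± 0.35 at 2 h (adjusted p = 0.0161), and was higher by 0.95 ± 0.35 at 4 h (adjusted p = 0.147). The rises at 1 and 2 h were 4.54-fold and 3.35-fold. The 2 Fos probe sets had a Pearson r of 0.03 over the arrays, whereas Fos 160901_at and Egr1 98579_at had one of 0.96, higher than that of Fos with any other of the 8251 genes; both genes share the same 22 arrays and the step between control and early arrays. Egr1 and Fos were thus the 2 members already high at the earliest time.

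**Figure D2:**
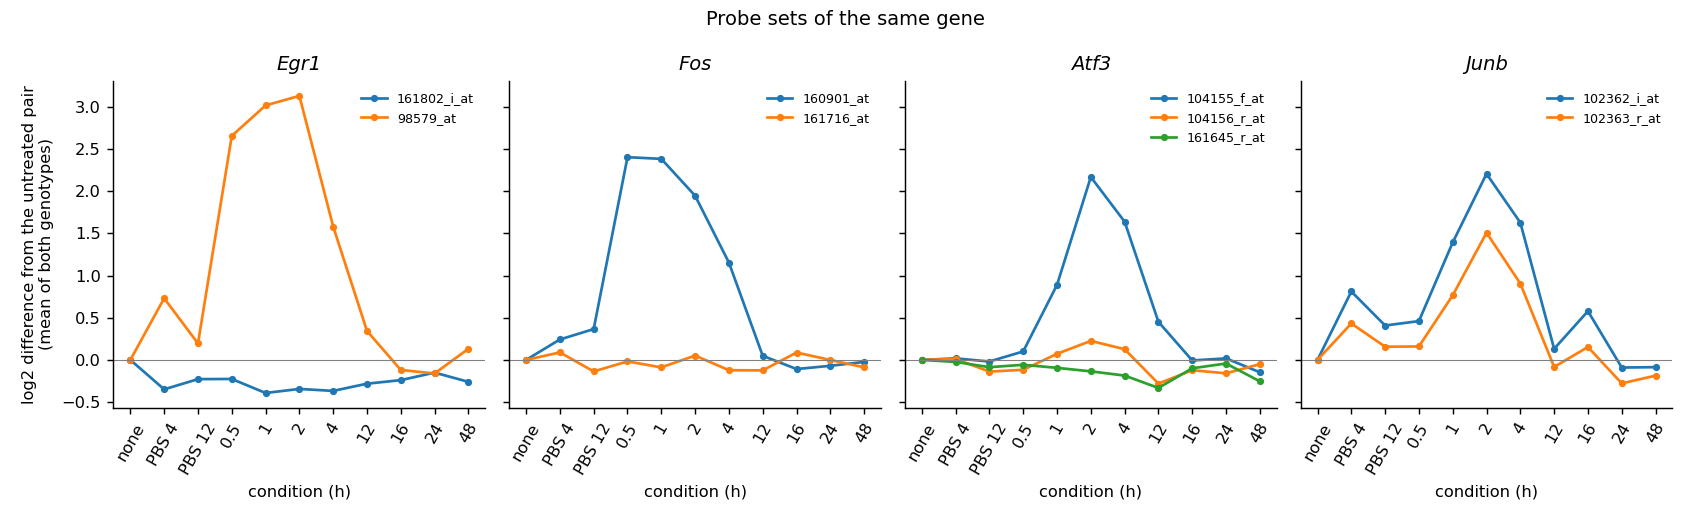
Mean of both genotypes in each condition minus the untreated pair (log2) for every probe set of the 4 genes that have more than 1. Egr1 98579_at, Fos 160901_at and Atf3 104155_f_at moved while a second set of the same gene stayed near 0; the 2 Junb sets moved together.

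Junb, the JUN family member that often restrains JUN activity, rose later and in both probe sets. Probe set 102363_r_at stood in SOCS1-/-IFNg-/- liver at 7.34 untreated, at 7.57 and 7.52 after PBS for 4 and 12 h, and at 7.64, 8.16, 8.71 and 8.36 at 0.5, 1, 2 and 4 h of interferon-gamma. In IFNg-/- liver it stood at 7.05 untreated, at 7.69 and 7.20 after PBS for 4 and 12 h, and at 7.08, 7.77, 8.71 and 7.85 at 0.5, 1, 2 and 4 h. The 0.5 h arrays lay within the control range of 7.05 to 7.69, the 1, 2 and 4 h arrays above it, and the genotypes were alike at the 2 h maximum.

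Against controls Junb was higher by 0.57 ± 0.14 at 1 h (limma adjusted p = 0.219), rose by 1.31 ± 0.14 at 2 h (adjusted p = 0.000171), a 2.48-fold difference, and rose by 0.71 ± 0.14 at 4 h (adjusted p = 0.00819). The 2 h pair mean of 8.71 stood above that at 4 h, 8.10, and at 1 h, 7.97; the 4 h and 1 h pairs differed by less than the standard error of 0.17 between pairs. The second set, 102362_i_at, rose by 0.99 ± 0.15 at 1 h (adjusted p = 0.0118), by 1.80 ± 0.15 at 2 h (adjusted p = 1.22e-05) and by 1.22 ± 0.15 at 4 h (adjusted p = 0.00035) in the fit over probe sets, and the 2 sets had a Pearson r of 0.97. Without the SOCS1-/-IFNg-/- 4 h array the 4 h difference of 102363_r_at was 0.54 ± 0.18 (adjusted p = 0.239). The 2 h call was kept in all 22 alternative fits, with an adjusted p of at most 0.00144. Set 102362_i_at carries the suffix i, which marks fewer probes than the platform's standard.

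Jun, the core AP-1 subunit, had a single probe set, 100130_at, and changed less. In SOCS1-/-IFNg-/- liver it stood at 5.13 untreated, at 5.21 and 5.31 after PBS for 4 and 12 h, and at 5.45, 5.24, 5.82 and 6.18 at 0.5, 1, 2 and 4 h of interferon-gamma. In IFNg-/- liver it stood at 5.27 untreated, at 5.19 and 5.15 after PBS for 4 and 12 h, and at 5.24, 5.20, 5.74 and 5.35 at 0.5, 1, 2 and 4 h. Both genotypes lay above the control range of 5.13 to 5.31 at 2 and 4 h, and at 1 h neither did. Jun rose by 0.57 ± 0.13 at 2 h (limma adjusted p = 0.0362) and by 0.55 ± 0.13 at 4 h (adjusted p = 0.021), a 1.49-fold and a 1.47-fold difference. Leaving out a pair of arrays ended the 2 h call in 6 of 10 fits (adjusted p up to 0.0676), and without the SOCS1-/-IFNg-/- 4 h array the 4 h difference was 0.19 ± 0.10 (adjusted p = 0.49).

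Atf3, the stress-induced ATF/CREB family member, had 3 probe sets that did not follow one course. The set with the highest mean, 104156_r_at, stood at 5.85, 6.01, 6.14 and 6.49 at 0.5, 1, 2 and 4 h in SOCS1-/-IFNg-/- liver and at 5.82, 6.04, 6.22 and 5.66 in IFNg-/- liver, against 5.76 to 6.05 on the 6 control arrays. Its differences from controls were 0.27 ± 0.14 at 2 h (limma adjusted p = 0.524) and 0.17 ± 0.14 at 4 h (adjusted p = 0.598). Without the IFNg-/- array, the lower of the 4 h pair, the 4 h difference was 0.58 ± 0.11 and rested on 1 array at 4 h. Probe set 104155_f_at, whose suffix marks probes shared with related sequences, had a range of 3.22 over the arrays, against 0.96 for 104156_r_at. It stood at 5.46, 6.15, 7.54 and 8.26 at 0.5, 1, 2 and 4 h in SOCS1-/-IFNg-/- liver and at 5.50, 6.38, 7.55 and 5.77 in IFNg-/- liver, against 5.25 to 5.49 on the control arrays. At 1, 2 and 4 h both genotypes lay above the controls. At 12 h they stood at 6.09 and 5.57, also above, but the difference from controls was 0.45 ± 0.34 (limma adjusted p = 0.606 over probe sets).

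In the fit over probe sets 104155_f_at rose by 2.17 ± 0.34 at 2 h (limma adjusted p = 0.00303) and by 1.64 ± 0.34 at 4 h (adjusted p = 0.0124), a 4.50-fold and a 3.12-fold difference, and was higher by 0.89 ± 0.34 at 1 h (adjusted p = 0.874). The third set, 161645_r_at, spanned 5.22 to 5.83 with differences at 1, 2 and 4 h of -0.06, -0.10 and -0.15 (SE 0.13 each). Since the sets disagree, the Atf3 rise rests on 104155_f_at, and how much of it comes from related sequences was not tested.

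Myc was measured by 1 probe set, 104712_at, near the low end of the array, at percentile 7.94 of all probe set means. In SOCS1-/-IFNg-/- liver it stood at 2.63 untreated, at 2.71 and 3.02 after PBS for 4 and 12 h, and at 2.78, 3.45, 3.88 and 3.70 at 0.5, 1, 2 and 4 h of interferon-gamma. In IFNg-/- liver it stood at 2.88 untreated, at 2.89 and 3.26 after PBS for 4 and 12 h, and at 2.72, 3.44, 3.18 and 2.85 at 0.5, 1, 2 and 4 h. Its highest value in IFNg-/- liver, 3.80, came at 24 h, when SOCS1-/-IFNg-/- liver was at 2.85. The differences from controls were 0.55 ± 0.24 at 1 h (limma adjusted p = 0.976), 0.63 ± 0.24 at 2 h (adjusted p = 0.273) and 0.38 ± 0.24 at 4 h (adjusted p = 0.457), and none passed.

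Counted by the chosen probe sets, 0 of 6 members were called higher at 0.5 h, 1 (Egr1) at 1 h, where 0.158% of all genes were called higher, 3 (Egr1, Jun and Junb) at 2 h, where 1.24% were, and 2 (Jun and Junb) at 4 h, where 3.14% were. No member was called lower, where 0% of all genes were at 0.5 and 1 h, 0.424% at 2 h and 1.89% at 4 h. The median difference of the 6 at 0.5, 1, 2 and 4 h was -0.02, 0.33, 0.60 and 0.47, beside medians of all genes between -0.03 and 0.00. Counted by probe set, 0, 3, 6 and 4 of the members' 11 sets were called higher for 0.5, 1, 2 and 4 h in turn. Of all probe sets 0%, 0.175%, 1.15% and 2.97% were. The called sets belonged to 3 members for 1 h (Egr1, Fos and Junb), 5 for 2 h (all but Myc) and 3 for 4 h (Jun, Junb and Atf3). The share of all genes with any called probe set is not given here. At 12, 16, 24 and 48 h no member was called by limma in either count, while 1.31%, 0.388%, 0.158% and 0.0121% of genes were called higher; the lowest adjusted p of a member at those times was 0.237, for Junb at 24 h (-0.47 ± 0.14).

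**Figure D3:**
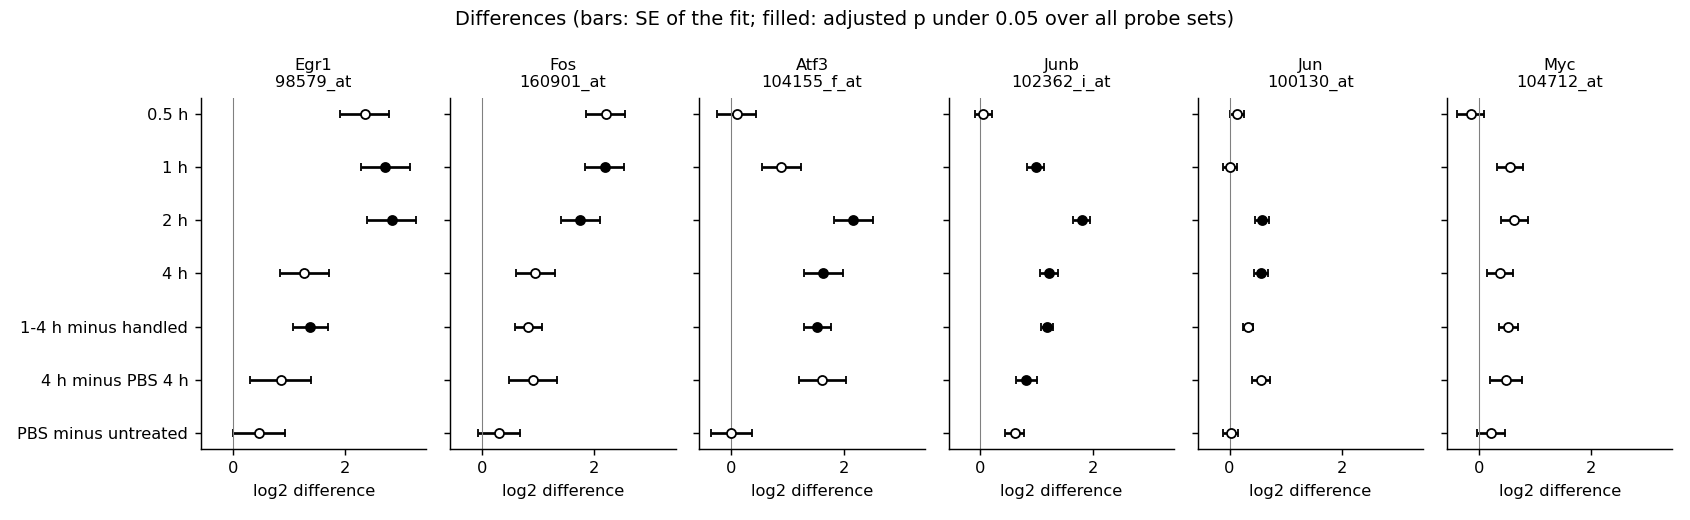
Fitted log2 differences with their standard errors for the probe set of each gene with the widest range over the arrays; times are set against the mean of the 6 control arrays and filled points have an adjusted p under 0.05 over all probe sets. At 0.5 h Egr1 and Fos lay 2.35 and 2.20 above the controls with open points, not past the threshold, and Atf3, Junb and Jun have filled points at 2 and 4 h. PBS livers differed from untreated livers by at most 0.61.

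Injection and handling were examined through the PBS arrays and the 0.5 h arrays. Against the untreated pair, the PBS pairs showed no called member, and 1 of 8251 genes (0.0121%), Id2, was called higher. Junb differed by 0.29 ± 0.15 (limma adjusted p = 0.461), Egr1 by 0.46 ± 0.47 (adjusted p = 0.727) and Myc by 0.21 ± 0.25 (adjusted p = 0.771). At 4 h after PBS, Junb 102362_i_at was at 7.36 in SOCS1-/-IFNg-/- and 7.23 in IFNg-/- liver, against 6.53 and 6.44 untreated, and its PBS difference was 0.61 ± 0.16 (adjusted p = 0.225 over probe sets). Egr1 on the PBS 4 h arrays was split, at 6.50 in SOCS1-/-IFNg-/- and 8.08 in IFNg-/- liver.

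At 0.5 h against the untreated pair, Egr1 was higher by 2.66 ± 0.54 (limma adjusted p = 0.759) and Fos 160901_at by 2.40 ± 0.42 (adjusted p = 0.435 over probe sets), while Jun, Junb and Myc differed by 0.15 ± 0.16, 0.16 ± 0.17 and 0.00 ± 0.29. Of all genes 0% were called higher, and 292 had an unadjusted p under 0.05. No PBS liver was taken at 0.5, 1 or 2 h. For the differences of Egr1, Fos and the other members at those times, interferon-gamma and the injection itself cannot be told apart by a time-matched control.

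The livers at 1 to 4 h were then set against the injected livers at 0.5 h, at 4 h after PBS and at 12 h after PBS. The 0.5 h livers had received interferon-gamma. Cxcl9 was at 8.31 in SOCS1-/-IFNg-/- and 7.76 in IFNg-/- liver 12 h after PBS, against 4.33 and 4.46 at PBS 4 h. The part of that Cxcl9 level in the comparison was not tested. Junb rose by 0.81 ± 0.10 (limma adjusted p = 0.000272) and Egr1 by 1.38 ± 0.31 (adjusted p = 0.0251), so 2 of 6 members were called where 1.73% of genes were called higher. Jun was higher by 0.33 ± 0.09 (adjusted p = 0.0739; 0.00996 without the 1 h pair), Myc by 0.52 ± 0.17 (adjusted p = 0.131) and Atf3 by 0.22 ± 0.10 (adjusted p = 0.341), and Fos differed by -0.03 ± 0.07. In the fit over probe sets, where 1.6% were called higher, Junb 102362_i_at rose by 1.18 ± 0.11 (adjusted p = 2.24e-05) and Atf3 104155_f_at by 1.53 ± 0.24 (adjusted p = 0.003), and Fos 160901_at was higher by 0.82 ± 0.24 (adjusted p = 0.106).

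The Egr1 call depended on which injected livers it was set against. Against the 0.5 h pair alone, the 1 to 4 h livers differed in Egr1 by -0.08 ± 0.44 (limma adjusted p = 0.984), and against the PBS pairs alone by 2.11 ± 0.35 (adjusted p = 0.00538). The call was also lost without the PBS 12 h pair, the 1 h pair or the 2 h pair (adjusted p up to 0.341). Junb rose by 0.90 ± 0.14 against the 0.5 h pair alone (adjusted p = 0.00394) and by 0.77 ± 0.11 against the PBS pairs alone (adjusted p = 0.00174). Its call was kept in all 23 alternative fits, with an adjusted p of at most 0.029. Without the IFNg-/- 4 h array, the 4 h level rested on the SOCS1-/-IFNg-/- array alone. That array stood above the omitted one in Jun (6.18 against 5.35), Atf3 104156_r_at (6.49 against 5.66) and Myc (3.70 against 2.85). The differences in that fit were 0.45 ± 0.06 for Jun, 0.36 ± 0.06 for Atf3 and 0.67 ± 0.16 for Myc. Over all genes 4.14% were called higher in it, against 1.73% with the array kept, and its calls of members are not counted.

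Against the time-matched PBS 4 h pair, the 4 h livers had 0 of 6 members called, where 0.994% of genes were called higher. Jun differed by 0.56 ± 0.16 (limma adjusted p = 0.108), Junb by 0.47 ± 0.17 (adjusted p = 0.236) and Egr1 by 0.85 ± 0.54 (adjusted p = 0.605). Of the probe sets 0.914% were called higher, among them Junb 102362_i_at at 0.82 ± 0.19 (adjusted p = 0.0474), and Atf3 104155_f_at was higher by 1.62 ± 0.42 (adjusted p = 0.0799). At 12 h against the PBS 12 h pair no member was called, while 0.109% of genes were called higher, and the largest difference among the chosen probe sets was -0.31 ± 0.29, for Myc. Over probe sets, Atf3 104155_f_at differed by 0.47 ± 0.42 (limma adjusted p = 0.94) and Fos 160901_at by -0.32 ± 0.42 (adjusted p = 0.971).

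The genotypes were compared through the difference SOCS1-/-IFNg-/- minus IFNg-/- within each of the 11 pairs of arrays. Over all pairs no member was called, where 0.145% of genes were called higher in SOCS1-/-IFNg-/- liver; Junb differed by 0.20 ± 0.07 (limma adjusted p = 0.426) and Jun by 0.17 ± 0.07 (adjusted p = 0.518). The pairs at 1, 2 and 4 h against the other 8 gave no called member either, with 0% of genes higher and 621 at an unadjusted p under 0.05. In that comparison Egr1 differed by 1.14 ± 0.44 (adjusted p = 0.635) and Myc by 0.67 ± 0.22 (adjusted p = 0.635).

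At 4 h the genotypes diverged. SOCS1-/-IFNg-/- against IFNg-/- liver had Egr1 at 9.26 against 7.03, Fos 160901_at at 5.04 against 3.05, and Atf3 104155_f_at at 8.26 against 5.77. Jun stood at 6.18 against 5.35, Myc at 3.70 against 2.85, and Junb at 8.36 against 7.85. At 2 h the genotypes had been close in Atf3 104155_f_at, Junb and Jun, at 7.54 against 7.55, 8.71 against 8.71 and 5.82 against 5.74. Myc at 2 h was at 3.88 against 3.18 and Fos 160901_at at 5.16 against 4.52, differences of 0.69 and 0.63. Cxcl9, an interferon-induced chemokine, stood at 11.33 on the SOCS1-/-IFNg-/- 4 h array and 8.06 on the IFNg-/- 4 h array, where IFNg-/- liver had 10.25 at 2 h and 10.99 at 12 h; its part in the genotype difference was not tested. Against the difference in the other 10 pairs, that at 4 h was larger by 0.82 ± 0.14 for Atf3 (limma adjusted p = 0.00363) and by 0.73 ± 0.14 for Jun (adjusted p = 0.00765), so 2 of 6 members were called where 2.75% of genes were called higher. Egr1 was at 2.21 ± 0.57 (adjusted p = 0.0503) and passed without the PBS 4 h, PBS 12 h or 0.5 h pair (adjusted p down to 0.0044). Myc was at 0.90 ± 0.37 (adjusted p = 0.197), Junb at 0.33 ± 0.24 (adjusted p = 0.451) and Fos 161716_at at -0.03 ± 0.18 (adjusted p = 0.931).

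Over probe sets, where 2.46% were called higher, Atf3 104155_f_at was larger by 2.30 ± 0.22 (limma adjusted p = 2.1e-05) and Fos 160901_at by 1.77 ± 0.44 (adjusted p = 0.0423), while Atf3 161645_r_at was at -0.53 ± 0.20 (adjusted p = 0.175). These values rest on a single array per genotype at 4 h, so a genotype difference at that time and a property of either array cannot be told apart. The 4 h pair was also picked with earlier results of these data known. The difference between the 3' and 5' probe sets of Actb, a measure of RNA integrity and labelling, was 0.33 on the SOCS1-/-IFNg-/- 4 h array and 0.77 on the IFNg-/- 4 h array, in a range of 0.33 to 1.56 over all arrays; its part in the result was not tested.

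**Figure D4:**
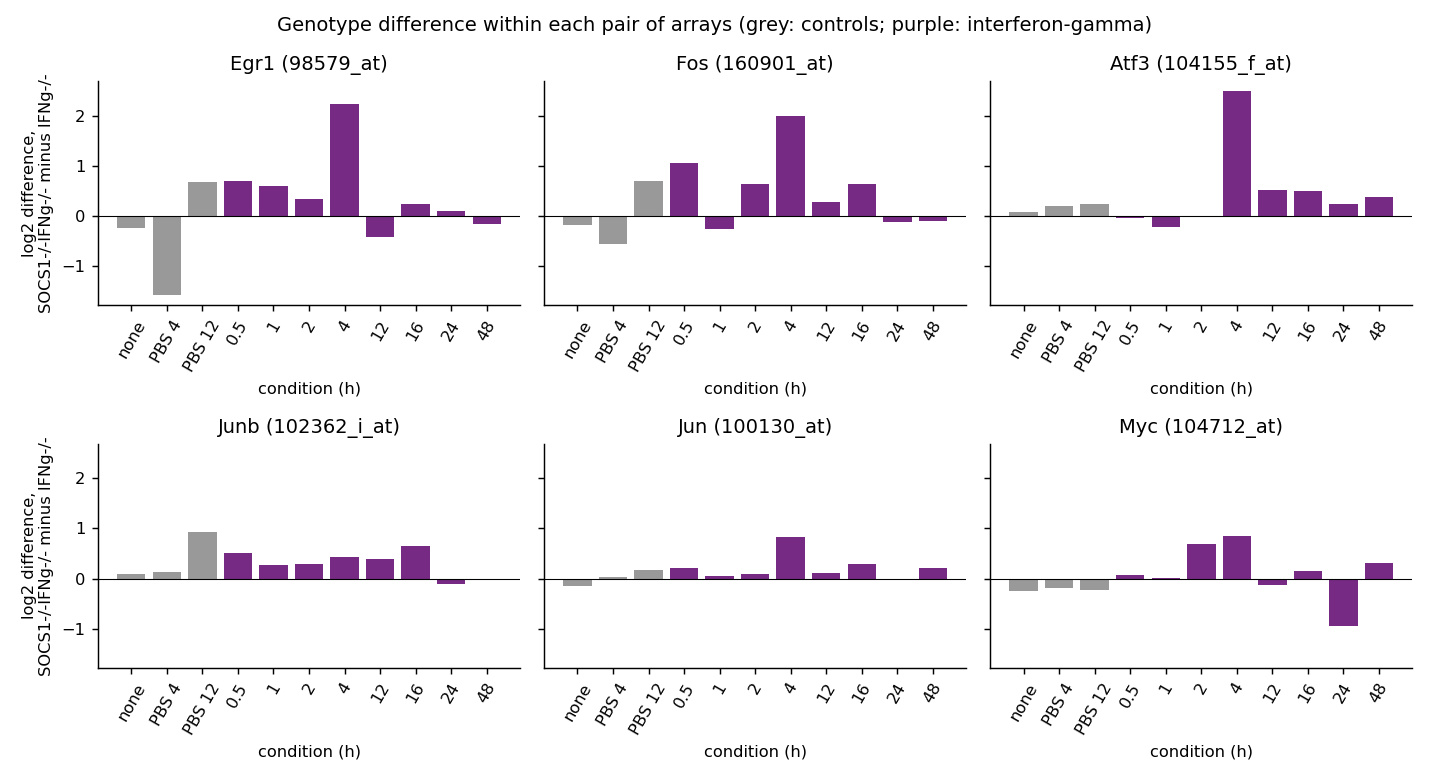
Difference SOCS1-/-IFNg-/- minus IFNg-/- (log2) within each of the 11 pairs of arrays, for the probe set of each gene with the widest range; bars start at 0, and grey bars are controls. The 4 h bar is the tallest for Egr1, Fos, Atf3 and Jun, at 2.23, 1.98, 2.49 and 0.83.

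The genes whose levels were most like each member over the 22 arrays were ranked by Pearson's r, as a description with no test. For Egr1 they were Gja1, the gap junction protein connexin 43 (0.89), Zfp36, an RNA-destabilising protein (0.86), and Gdap10 (0.85). For Fos 160901_at they were Egr1 (0.96), Gja1 (0.90) and the insulin-like growth factor binding protein Igfbp1 (0.84), and for Fos 161716_at they were Hsd11b2, Ror2 and Hoxd9 (0.77 each). Junb 102363_r_at was closest to the cytokine signalling suppressor Socs3 (0.91), the kinase Map3k8 (0.88) and the interferon regulatory factor Irf1 (0.88). Jun was closest to Cmpk2 (0.93), Pim3 (0.93) and Myd88 (0.92), with a lower Spearman's rho of 0.47, 0.67 and 0.63. Atf3 104155_f_at was closest to the interferon-induced genes Cxcl10 (0.99) and Rsad2 (0.97) and to Clp1 (0.96). Spearman's rho with these was lower, at 0.88, 0.77 and 0.84. Atf3 104156_r_at was closest to Gramd3 (0.80), Zfp36 (0.79) and Reep1 (0.79), with a lower Spearman's rho of 0.48, 0.57 and 0.69. Myc had the loosest companions of the single-set genes, Foxq1 (0.79), Tmem68 (0.76) and Phlda1 (0.71).

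Genes of the same pathways were counted in the comparison of 1 to 4 h with injected livers. Over all genes 1.73% were called higher and 0.933% lower in it. Of 21 partners of AP-1 and ATF factors, 3 rose and 0 fell, with a median difference of 0.05 beside -0.015 for all genes. These were Cebpd, an acute-phase C/EBP factor, by 1.28 ± 0.25 (limma adjusted p = 0.0117), Crem, a cyclic AMP responsive modulator, by 1.01 ± 0.11 (adjusted p = 9.04e-05), and Mafk, a small MAF protein, by 0.30 ± 0.07 (adjusted p = 0.031). In 4 h against PBS 4 h, 1 of the 21, Crem, was called, where 0.994% of genes were called higher. Crem stood at 5.66, 6.34 and 6.38 at 1, 2 and 4 h in SOCS1-/-IFNg-/- liver and at 6.12, 6.77 and 5.67 in IFNg-/- liver, against 4.95 to 5.55 on the control arrays. Of 4 measured members of the EGR family and its co-repressors, Egr2 rose, by 0.38 ± 0.07 (adjusted p = 0.00697), and its level was 5.08 in SOCS1-/-IFNg-/- and 5.17 in IFNg-/- liver at 1 h, against 4.54 to 4.68 on the control arrays. By 4 h Egr2 was at 4.69 in SOCS1-/-IFNg-/- and 4.72 in IFNg-/- liver. In 4 h against PBS 4 h it differed by 0.11 ± 0.12 (limma adjusted p = 0.836).

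Of 9 genes of the MYC network, 0 passed in that comparison, and Max, the dimerisation partner of MYC, rose at 4 h against controls by 0.90 ± 0.23 (limma adjusted p = 0.0383), where 3.14% of genes were called higher. Of 33 growth targets of MYC, 2 rose, where 1.73% of all genes did, the ribosome biogenesis factors Rrs1 by 0.48 ± 0.07 (adjusted p = 0.00171) and Gnl3 by 0.72 ± 0.17 (adjusted p = 0.0292), with a median of -0.03. Gnl3 was the 1 of the 33 called in 4 h against PBS 4 h, at 1.25 ± 0.29 (adjusted p = 0.0466). Of 14 genes of serum response factor, its ternary complex partners and the MAP kinases, and of 8 phosphatases and other inhibitors that act back on MAP kinases, 0 passed; medians were -0.02 and -0.04.

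Of 18 genes known as targets of EGR1 or AP-1, 6 rose and 0 fell, where 1.73% of all genes rose and 0.933% fell, with a median of 0.13. The monocyte chemokine Ccl2 rose by 2.70 ± 0.22 (limma adjusted p = 7.23e-06), the neutrophil chemokine Cxcl1 by 2.40 ± 0.47 (adjusted p = 0.0117), the adhesion molecule Icam1 by 1.59 ± 0.16 (adjusted p = 9.04e-05), the collagenase Mmp13 by 0.86 ± 0.16 (adjusted p = 0.0101) and Cxcl2 by 0.41 ± 0.10 (adjusted p = 0.0338). Cxcl1 was also high 4 h after PBS, at 9.10 in SOCS1-/-IFNg-/- and 8.41 in IFNg-/- liver, against 6.39 and 5.42 untreated. The other handled arrays were split by genotype. At PBS 12 h it was at 8.58 in SOCS1-/-IFNg-/- and 5.91 in IFNg-/- liver, and at 0.5 h at 9.66 and 5.89. In 4 h against PBS 4 h, 3 of the 18 were called, Ccl2, Icam1 and Mmp13, where 0.994% of genes were called higher; Cxcl1 was at 1.29 ± 0.81 (limma adjusted p = 0.6) and Cxcl2 at 0.24 ± 0.17 (adjusted p = 0.665).

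Of 35 other immediate early genes, 6 rose and 2 fell, where 1.73% of all genes rose and 0.933% fell, with a median of 0.09. Gadd45g, a stress-induced growth arrest gene, rose by 1.31 ± 0.22 (limma adjusted p = 0.00529), Zfp36 by 1.04 ± 0.22 (adjusted p = 0.0179), the small GTPase Rhob by 0.74 ± 0.19 (adjusted p = 0.0497) and the kinase Pim1 by 0.36 ± 0.07 (adjusted p = 0.00932). Tob1, an antiproliferative gene, fell by 0.76 ± 0.16 (adjusted p = 0.0178). In 4 h against PBS 4 h, 0 of the 35 were called, with Gadd45g at 0.67 ± 0.39 (limma adjusted p = 0.549), Pim1 at -0.08 ± 0.12 (adjusted p = 0.886) and Rhob at 1.22 ± 0.32 (adjusted p = 0.0863). Gadd45g was high on PBS arrays too, at 7.15 in SOCS1-/-IFNg-/- and 6.98 in IFNg-/- liver at 4 h, against 5.52 and 5.54 untreated. At PBS 12 h it was at 6.75 and 6.30. Its difference of PBS from untreated livers was 1.27 ± 0.33 (limma adjusted p = 0.218). At 0.5 h it was at 7.32 in SOCS1-/-IFNg-/- but 5.44 in IFNg-/- liver. Zfp36 stood at 9.96 in SOCS1-/-IFNg-/- and 7.89 in IFNg-/- liver at 4 h, and its genotype difference there exceeded that of the other pairs by 1.90 ± 0.28 (adjusted p = 0.00103).

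**Figure D5:**
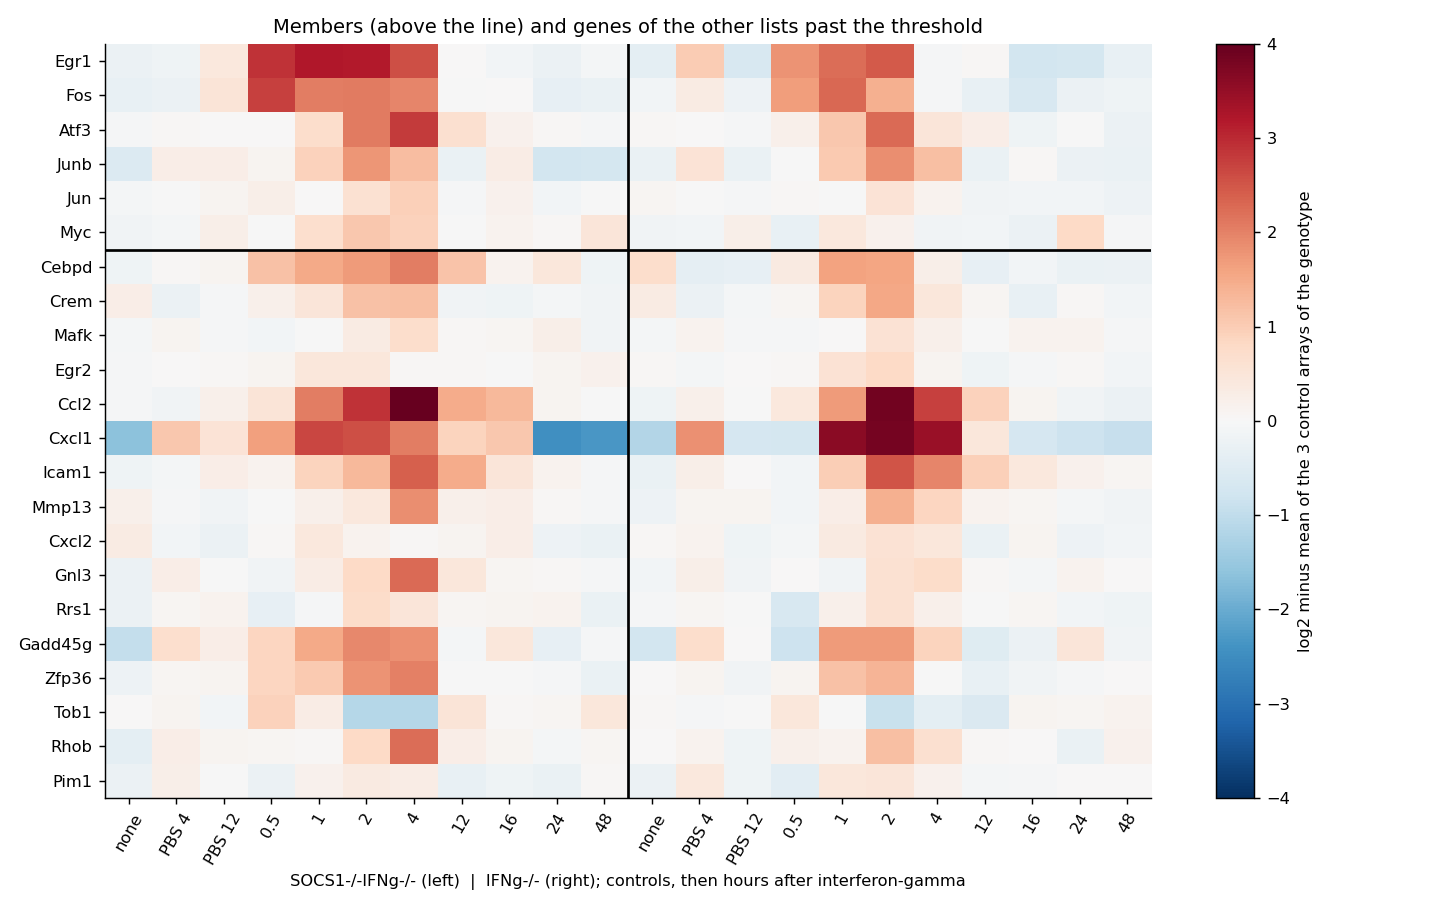
Log2 value on each of 22 arrays minus the mean of the 3 control arrays of the same genotype, for the 6 members (the probe set with the widest range) and for the genes named from the pathway lists. Columns run from controls to 48 h within SOCS1-/-IFNg-/- (left) and IFNg-/- (right), and the colour scale ends at 4; at 4 h the left block keeps colour in Egr1, Fos, Atf3 and Zfp36 where the right block is near 0.

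Markers of other cell types were counted beside these results. In the comparison of 1 to 4 h with injected livers, 0 markers of Kupffer cells, monocytes, neutrophils, T or NK cells, B cells, endothelial, stellate or erythroid cells, cholangiocytes or hepatocytes passed. Each list held 2 to 7 measured markers. Over all genes 1.73% were called higher and 0.933% lower, so a count of 0 is near that share. The mean of 7 neutrophil markers was 5.19 to 5.31 on the 6 arrays at 1 to 4 h, against 5.03 to 5.23 on the 6 injected control and 0.5 h arrays. The mean of 4 Kupffer cell markers was 6.43 to 6.72 at 1 to 4 h, against 6.39 to 6.69 on those arrays, and the mean of 2 monocyte markers was 4.02 to 4.26, against 3.95 to 4.20. Their part in the result was not tested.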

How the data were processed

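RNA was measured in 22 liver samples on Affymetrix arrays, 1 array each. The authors deposited log2 expression values per probe set, already normalized between arrays; per the submitters' processing notes the affy package was used, and how background, normalization and probe summary were done was not given in the sources used here. That the values are log2 was read from their range.

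Of 12488 probe sets, 66 controls were left out; 10833 carried 1 gene symbol, 396 several and 1193 none, and the last 2 kinds were not named. The probe set with the highest mean over 22 arrays stood for each of 8251 genes. limma 3.58.1 in R 4.3.3 (lmFit, eBayes) fitted condition plus genotype with 10 residual degrees of freedom, and genotype differences on 11 within-pair differences; Benjamini-Hochberg adjustment ran over all genes at a threshold of 0.05. A second fit used each of the 10833 probe sets, adjusted over all of them. With 1 array per genotype and condition, the genotypes stood in for replicates. Residual spread in the time fit is how much the genotype difference varies between conditions, which mixes technical spread with any genotype-specific response. P-values reflect no more than that spread, and the wide 4 h genotype differences enter the error of every time comparison. Arrays were grouped by labelled genotype, treatment and time, and precision is limited by their number. Symbols matched RefSeq (GRCm38.p6) with 0 changes. Fits were tested on simulated data.

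The 6 members and the pathway and marker lists were chosen with earlier results of these data known. So was the test of the 4 h genotype difference against the other pairs, and its p-values take no account of that choice. From each list up to 5 genes past the threshold with the largest difference between 1 to 4 h and injected livers were named with values; Id2, Max, and the other probe sets of members, together with the fits over probe sets and those without single 4 h or PBS 4 h arrays, were added after the data were seen. For likeness, the 3 genes with the highest Pearson r were named.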

Additional observations from a re-analysis of the deposited data

Results flagged for a closer look

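The genotype difference (SOCS1-/-IFNg-/- minus IFNg-/-) at 4 h stood apart from that of the other 10 pairs for several of the genes, by limma's test of the difference itself. In the fit with 1 probe set per gene it was larger by 0.82 ± 0.14 for Atf3 (adjusted p = 0.00363) and by 0.73 ± 0.14 for Jun (adjusted p = 0.00765). In the fit over all probe sets it was larger by 2.30 ± 0.22 for Atf3 104155_f_at, 0.82 for Atf3 104156_r_at, 0.73 for Jun, 1.77 ± 0.44 for Fos 160901_at and 2.21 ± 0.57 for Egr1 (adjusted p = 0.05). The 4 h pair is 1 array of each genotype, with no second liver at that time. That pair was picked with earlier results of these data known, and the adjusted p-values take no account of the choice.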

How the results depend on the processing

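Of 1796 values of the 6 genes under alternative settings, 28 passed the threshold newly, 19 lost it and 8 that passed it under either setting changed sign; the other 1741 stayed on their side of it, and sign changes of values that passed under neither setting are not counted. The cause of the changes was not tested. The number of members called, at 0.5 h 0 as reported, was 1 (Egr1) with array weights, without the SOCS1-/-IFNg-/- 4 h array, without the IFNg-/- 4 h array and without the IFNg-/- PBS 4 h array, and 0 to 1 on leaving out a pair. At 0.5 h against untreated livers it was 1 with array weights. At 1 h it was 1 as reported, 0 with trend and robust fitting, 2 with array weights, 3 with the mean of all probe sets, 2 with the probe set of lowest mean, 3 with each probe set fitted alone, and 0 to 1 on leaving out a pair. At 2 h it was 3, 5 with the mean of all probe sets or each probe set alone, and 2 to 3 on leaving out a pair; Jun was lost there, and also without both untreated arrays (limma adjusted p = 0.0596) and against untreated arrays only (adjusted p = 0.087). At 4 h it was 2, 0 with array weights and 1 against untreated arrays only. Among genes above the median mean it was 1, because that filter removed Jun before testing. Fits without either array of the 4 h pair rest on 1 array at that time and are not counted for 4 h. In 1 to 4 h against injected livers it was 2, 1 with trend and robust fitting, with the probe set of lowest mean and against the 0.5 h pair only, and 1 to 2 on leaving out a pair. The fit without the IFNg-/- 4 h array is not counted there for the same reason. In 4 h against PBS 4 h it was 0, and 1 with the probe set of lowest mean or each probe set alone. In the 4 h genotype difference it was 2, and 4 with each probe set alone. Among genes above the median mean it was 0, because that filter removed both Atf3 and Jun before testing. The signs turned for Fos at 1 h (1.05 with the mean of its sets, 2.18 with the lowest set), for Egr1 with its lowest set (-0.20 at 1 h, -0.15 at 2 h, -0.10 at 1 to 4 h against injected livers) and against the 0.5 h pair only (-0.08), and for Atf3 (-0.53) and Fos (1.77) with their lowest sets in the 4 h genotype difference.

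Over all genes, calls in either direction moved by over 1.5 times in some alternative at 1 h (13 as reported, 5 to 47 elsewhere), 2 h (137, 86 to 420), 4 h (415, 60 to 813), 12 h (117, 54 to 187), 16 h (37, 14 to 60), 24 h (14, 7 to 27), 48 h (1, 0 to 2) and 1 to 4 h against injected livers (220, 56 to 539). The same held for PBS against untreated (2, 1 to 51), 0.5 h (0, 0 to 1), 4 h against PBS 4 h (112, down to 23), 12 h against PBS 12 h (9, 4 to 32), the genotype difference over all pairs (17, 0 to 28) and that at 4 h (277, down to 157). The labels number no replicates, so no replicate number could serve as a block; the 2 arrays of each condition, 1 per genotype, were paired in the fits, and the levels of Myc and Fos near the bottom of the scale limit what can be read from them.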
